A study of Drosophila melanogaster with 6 samples.

Results

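Proneural genes encode basic helix-loop-helix (bHLH) transcription factors that push cells towards a neural fate. The 10 genes described here, of 17471 in the count files, were taken by name and matched by FlyBase identifier: ato, cato, amos, tap, ac, sc, l(1)sc and ase, with their common partner da and the inhibitor emc. Every one was found in the files, 8 had a read in at least 1 library, and 4 (ato, da, emc and tap) passed the filter on low counts and were tested. The libraries came from anterodorsal projection neurons (adPNs), the second-order olfactory neurons of the fly antennal lobe, at 36 to 40 h after puparium formation. There were 3 acj66_adPN libraries, labelled as acj6 mutant, and 3 WT_adPN libraries, labelled as wild type. acj6 encodes a POU-domain transcription factor of this lineage, and acj66 is the allele name in the titles; the labels give no lesion, sex, driver, number of cells or pooling of animals.

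As background, a proneural protein binds DNA as a dimer with Da, the fly E protein, at short sequences called E-boxes. Emc has the helix-loop-helix but lacks the basic, DNA-binding region, so it forms dimers that do not bind DNA and holds its partners in check. The proteins of the achaete-scute complex and the Atonal family act mainly in precursors, before neurons are born, although Ato is also made by some neurons of the fly brain.

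Levels are given below in TMM-scaled counts-per-million (CPM), relative to the sum over genes. Gene counts per library ranged from 24467328 to 38279909. Without TMM scaling, 3 counts at these sizes correspond to between 0.0784 and 0.123 CPM. The membrane-tethered GFP transgene mCD8-GFP was counted in every library. Also without TMM scaling, it stood at 4081, 4043 and 4517 CPM in acj66_adPN and at 4230, 3640 and 3126 CPM in WT_adPN. The adPN and pan-neuronal markers were detected in all libraries, with summed levels of 11199 to 11694 CPM in acj66_adPN and 8558 to 9079 CPM in WT_adPN. Without brp, the most abundant, the sums were 5406 to 5740 CPM in acj66_adPN and 4909 to 5226 CPM in WT_adPN. Of the 11, 3 (acj6, kn and brp) were called higher, or 27.3% against 4.4% of all genes tested. The median log2 fold change of the 11 was -0.04. With the transcript-length trend removed, the log2 fold change of brp was 0.29 (adjusted p = 0.0362, edgeR), against 0.62 in the main fit. acj6 (FBgn0000028, X chromosome) itself stood at 276, 248 and 228 CPM in the acj66_adPN libraries, against 146, 143 and 158 CPM in the WT_adPN libraries (adjusted p = 0.0124, edgeR), and its call was lost without WT_adPN replicate 2 (adjusted p = 0.0658). Since reads were summed over the full length of acj6, this level is no check of the mutant label, and the libraries are called by their labelled names throughout.

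Of the 4 listed genes tested, ato was higher and emc lower in the acj66_adPN libraries, while da and tap were not called. Calls are those of edgeR's quasi-likelihood test at a Benjamini-Hochberg adjusted p under 0.05. Of the 9229 genes tested, 4.4% were called, 3.07% higher and 1.33% lower. Before adjustment 1533 of the 9229 had a p under 0.05 in edgeR, the background for such counts in the lists below. The groups did not overlap for ato, which was higher in acj66_adPN as were 11.7% of tested genes without overlap, and for emc, which was lower as were 11.5% (23.2% in either direction). Both were also called by DESeq2, which called 10.5% of the genes it tested, and by limma-voom, which called 4.26%.

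**Figure D1:**
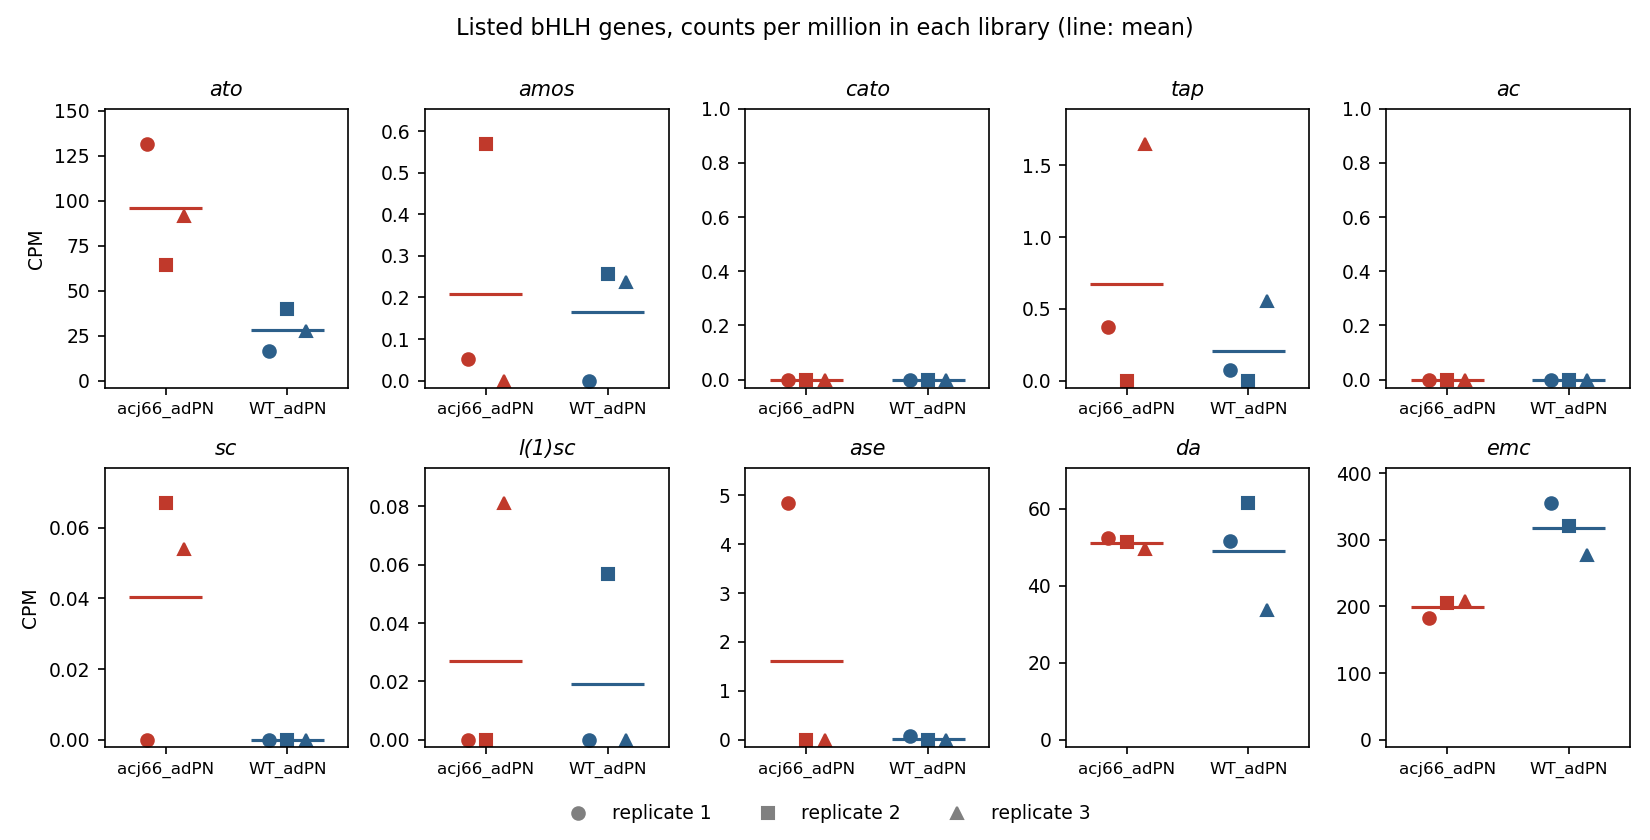
CPM (y axes, each with its own scale from 0) of the 10 listed genes in the 3 acj66_adPN libraries and the 3 WT_adPN libraries; each point is a library, its shape the replicate number, and the line the group mean. ato lies between 64.3 and 131 CPM in acj66_adPN and between 16.3 and 40.1 CPM in WT_adPN, emc lies lower in every acj66_adPN library, and the single ase value of 4.84 CPM is acj66_adPN replicate 1.

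The Atonal family was represented by ato, the proneural gene of chordotonal organs, photoreceptors and a class of olfactory sense organs. It lies on chromosome arm 3R (FBgn0010433). ato stood at 131, 64.3 and 91.5 CPM in acj66_adPN replicates 1 to 3, from 4947, 1921 and 3387 reads. In WT_adPN replicates 1 to 3 it stood at 16.3, 40.1 and 27.7 CPM, from 447, 1410 and 697 reads. Every acj66_adPN library was above every WT_adPN library, although the levels varied widely within each group, with a coefficient of variation of 35.3% in acj66_adPN and 42.4% in WT_adPN. Over the 9 pairs formed by an acj66_adPN and a WT_adPN library, the fold lay between 1.60 and 8.06.

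The means of ato were 95.7 ± 33.8 CPM in acj66_adPN and 28.0 ± 11.9 CPM in WT_adPN (SD, n = 3 each). It rose 3.41-fold, a log2 fold change of 1.77 ± 0.36 (SE) with a 95% interval of 0.96 to 2.59 (adjusted p = 0.0312, edgeR). Among the 2828 tested genes with a mean level at least as high, this was the 5th highest log2 fold change. The call was lost without acj66_adPN replicate 1 (log2 fold change 1.47, adjusted p = 0.0875, edgeR) or replicate 3 (1.81, adjusted p = 0.0755), and without WT_adPN replicate 1 (1.51, adjusted p = 0.0695) or replicate 3 (1.76, adjusted p = 0.1). In bulk libraries, more cells with ato RNA and more ato RNA per cell cannot be told apart.

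The ato gene has 1 annotated transcript of 1223 bases and shares no exon sequence with another gene. Its left neighbour among protein-coding genes, CG9630, averaged 49.9 ± 10.5 CPM in acj66_adPN and 37.2 ± 22.1 CPM in WT_adPN and was not called (log2 fold change 0.42 ± 0.46). The right neighbour, Nazo, was close to 0 in both groups. Markers of peripheral sensory neurons, the cells in which ato is best known, were low apart from the transcription factor gene onecut. The 17 markers summed to 120.3 to 139 CPM in acj66_adPN and to 85.2 to 130.4 CPM in WT_adPN, with overlap. Without onecut the sums were 23.7 to 50.8 CPM in acj66_adPN and 18.4 to 23.6 CPM in WT_adPN. These ranges did not overlap, although the lowest acj66_adPN sum, 23.65 CPM, was close to the highest WT_adPN sum, 23.58 CPM. Most of the highest sum without onecut was Rfx, a transcription factor gene of ciliated sensory neurons, at 31.6 CPM in acj66_adPN replicate 1. dila, a gene of cilium assembly named after its values were seen, was lower without overlap, at 1.97 ± 1.03 CPM in acj66_adPN and 5.13 ± 0.402 CPM in WT_adPN (adjusted p = 0.340, edgeR). The part of sensory cells in the ato result was not tested. Of the 10 markers tested, edgeR called 0, limma-voom 0 and DESeq2 1, and in edgeR 1 was under 0.05 before adjustment. Their median log2 fold change was 0.49, against -0.01 over all genes tested. The marker with the smallest p was iav, a chordotonal channel subunit gene, at 5.02, 0.335 and 7.46 CPM in acj66_adPN and 0.219, 0.341 and 0.675 CPM in WT_adPN (adjusted p = 0.168).

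The other Atonal-family genes were at or near 0. amos, the proneural gene of the remaining olfactory sense organs, had 2, 17 and 0 reads in acj66_adPN replicates 1 to 3 and 0, 9 and 6 in WT_adPN replicates 1 to 3. cato, which acts downstream of ato in sensory precursors, had no read in any library, which allows at most 0.0287 CPM over the acj66_adPN group and 0.0342 CPM over the WT_adPN group at 3 counts. These limits cover counting error only, since the amplified libraries carry no molecular identifiers. tap, the fly relative of the vertebrate neurogenins, had 14, 0 and 61 reads in acj66_adPN and 2, 0 and 14 in WT_adPN, or 0.372, 0 and 1.65 CPM against 0.0730, 0 and 0.556 CPM. The tap groups overlapped, and the 95% interval of its fold, 0.166 to 62.7, was too wide to say more than that no change was detectable in these libraries (adjusted p = 0.730).

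The 4 genes of the achaete-scute complex, which lie together on the X chromosome, gave 189 reads in all in acj66_adPN and 4 in WT_adPN, and none passed the filter. ac had no read in any library. sc, which like ac drives external sensory bristles, had 0, 2 and 2 reads in acj66_adPN and none in WT_adPN, and l(1)sc, a proneural gene of the embryonic nervous system, had 0, 0 and 3 reads in acj66_adPN and 0, 2 and 0 in WT_adPN. ase, a marker of neuroblasts and of sensory precursors, had 182 reads (4.84 CPM) in acj66_adPN replicate 1 and none in replicates 2 and 3, against 2, 0 and 0 reads in WT_adPN. The neuroblast gene wor was at 0 in every library. dpn, another neuroblast gene, was at 0.0797 CPM in the library with the ase reads. mira, which encodes the carrier of fate determinants in dividing neuroblasts, was at 4.12, 0.301 and 0.135 CPM in acj66_adPN replicates 1 to 3 and at 7.66, 0.0284 and 0.476 CPM in WT_adPN replicates 1 to 3. In each group mira was highest in the library with ase reads, which in WT_adPN were only 2. The other neuroblast and ganglion mother cell markers did not all share this order. pros, brat, nerfin-1 and grh were also highest in those libraries. klu, stg, CycE and dpn were highest in acj66_adPN replicate 2 and WT_adPN replicate 3. erm, pnt, N and Dl followed neither order in full, and insc had no read in WT_adPN and tll none in acj66_adPN. All of these markers except pros and insc were named after their values were seen, as was mira. The part of neuroblasts in the ase reads was not tested.

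da (FBgn0267821, arm 2L), the partner of all these factors, was counted at nearly the same level in both groups. It stood at 52.5, 51.4 and 49.5 CPM in the acj66_adPN libraries and at 51.5, 61.4 and 33.7 CPM in the WT_adPN libraries. The acj66_adPN values lay within the WT_adPN range, with a coefficient of variation of 2.93% in acj66_adPN and 28.7% in WT_adPN. The log2 fold change was 0.07 ± 0.23 (SE), with a 95% interval of the fold from 0.725 to 1.51 (adjusted p = 0.934, edgeR). Changes within that interval are not excluded. An antisense RNA on the opposite strand overlaps 362 of the 3603 exon bases of da, and the strand setting of the counting is not given in the sources used here.

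emc (FBgn0000575, arm 3L), the inhibitor of Da and the proneural proteins, was the most abundant of the 10 genes and the 1 called lower. It stood at 182, 206 and 209 CPM in acj66_adPN replicates 1 to 3, against 355, 320.2 and 278 CPM in WT_adPN replicates 1 to 3. No acj66_adPN library reached the lowest WT_adPN library, and the fold over the 9 pairs of libraries lay between 0.514 and 0.752.

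The means of emc were 199 ± 14.5 CPM in acj66_adPN and 318 ± 38.6 CPM in WT_adPN (SD, n = 3 each). It fell to 0.627 of the wild-type level, a log2 fold change of -0.67 ± 0.13 (SE) with a 95% interval of -0.96 to -0.39 (adjusted p = 0.0230, edgeR). Among the 798 tested genes with a mean level at least as high, 15 had a lower log2 fold change. With 1 library left out, the call held only without WT_adPN replicate 3 (log2 fold change -0.76, adjusted p = 0.0336, edgeR). In the other 5 leave-outs the log2 fold change stayed between -0.70 and -0.58, with adjusted p-values up to 0.0920 (without WT_adPN replicate 2).

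emc is made in many cell types. The summed levels of glial markers and of epithelial, cuticle and tracheal markers were also lower in the acj66_adPN libraries. The 10 glial markers summed to 496 to 548 CPM in acj66_adPN and to 629 to 702 CPM in WT_adPN. Most of this was nrv2, a sodium pump subunit gene that neurons also express (315 ± 7.60 CPM in acj66_adPN, 433 ± 35.4 CPM in WT_adPN, adjusted p = 0.0425, edgeR). It was the 1 called of the 10 glial markers tested, or 10% against 4.4% of all genes tested. nrv2 lost its call in all 6 leave-outs. Without nrv2 the glial sums overlapped, at 177 to 242 CPM in acj66_adPN and 215 to 265 CPM in WT_adPN, and repo, the defining glial gene, averaged 1.57 CPM in acj66_adPN and 1.86 CPM in WT_adPN. The 9 epithelial, cuticle and tracheal markers summed to 6.96 to 18.3 CPM in acj66_adPN and to 27.5 to 126 CPM in WT_adPN, and the part of either cell type in the emc result was not tested. In that list 4 of the 9 tested were called lower, or 44.4% against 1.33% of all genes tested. These 4, Cpr100A, Lcp65Ad, Cpr51A and Cpr72Eb, are cuticle genes put on the list because earlier results of these libraries showed them. Their share is therefore no result, and limma-voom called 0 of the list. grh, also on that list and named after its values were seen, was higher without overlap. It averaged 2.59 ± 1.06 CPM in acj66_adPN and 1.02 ± 0.323 CPM in WT_adPN (adjusted p = 0.479, edgeR). Leaving out 1 library ended the call of Cpr51A in 1 of 6 cases, without WT_adPN replicate 2 (adjusted p = 0.0559, edgeR), and that of Cpr72Eb in 4, with adjusted p-values up to 0.101. Neither neighbour of emc was called: hng3 averaged 33.3 ± 8.25 CPM in acj66_adPN and 31.0 ± 6.86 CPM in WT_adPN, and CG13898 was under 2 CPM in both groups.

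To set the genes against each other, levels were divided by transcript length (the median over annotated transcripts, in kilobases). Per kilobase, emc averaged 97.1 ± 7.07, ato 78.3 ± 27.6 and da 16.2 ± 0.474 CPM in acj66_adPN (SD, n = 3). In WT_adPN, emc averaged 155 ± 18.8, ato 22.9 ± 9.71 and da 15.5 ± 4.43 CPM per kilobase. The order of the means was thus emc, ato and da in both groups. In acj66_adPN the ranges of emc and ato overlapped and da lay below both, while in WT_adPN emc lay above both and the ranges of ato and da overlapped. ato exceeded 85.3% of tested genes per kilobase in acj66_adPN and 64.3% in WT_adPN, emc 88.0% in acj66_adPN and 92.4% in WT_adPN, and da 57.3% in acj66_adPN and 56.6% in WT_adPN.

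Within each library, emc per kilobase was 5.37, 6.17 and 6.51 times da in acj66_adPN replicates 1 to 3, against 10.6, 8.05 and 12.7 times in WT_adPN replicates 1 to 3. The ranges did not overlap. The log2 ratio differed by -0.78, and the two-sided exact permutation p was 0.1, the smallest that 3 libraries against 3 allow, so this comparison could not pass the threshold. ato was 6.48, 3.23 and 4.78 times da in the acj66_adPN libraries and 0.818, 1.69 and 2.12 times da in the WT_adPN libraries. emc was 0.829, 1.91 and 1.36 times ato in the acj66_adPN libraries and 13.0, 4.77 and 5.99 times ato in the WT_adPN libraries. In acj66_adPN replicate 1, which had the most ato and the least emc, ato was the more abundant of the pair per kilobase.

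**Figure D2:**
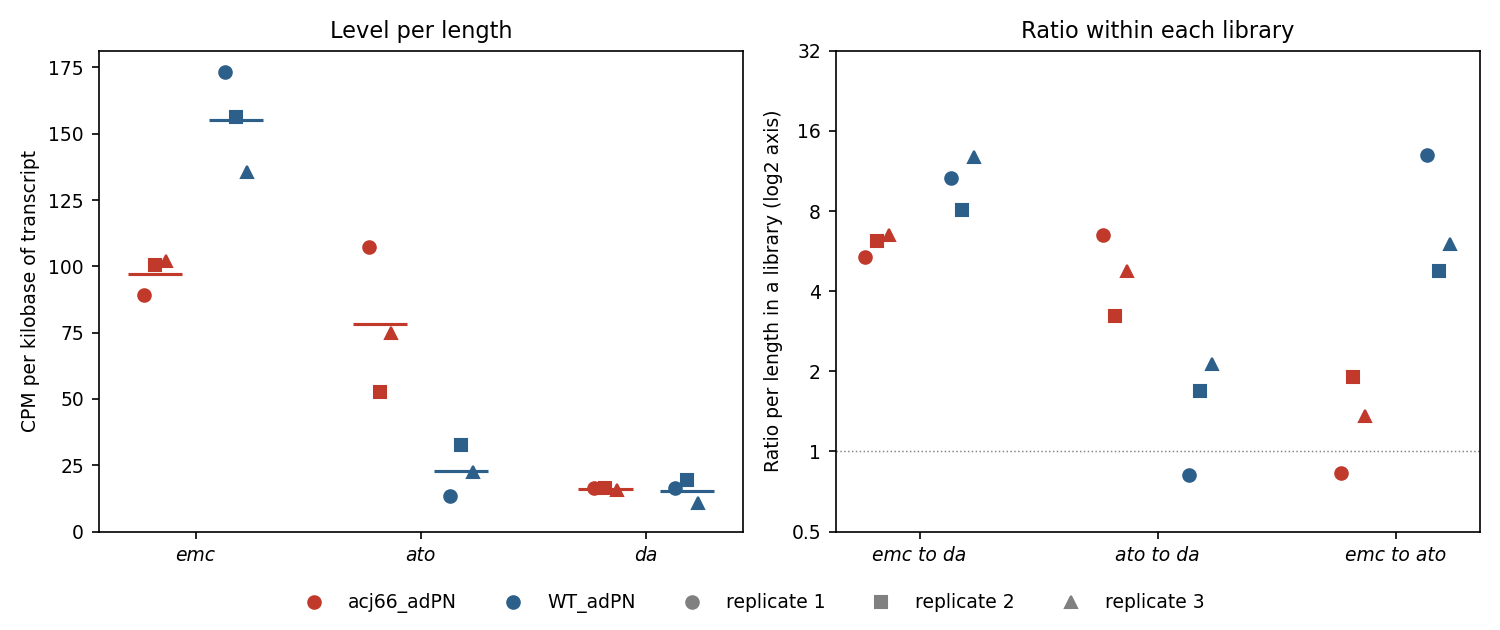
Left, CPM per kilobase of transcript of emc, ato and da in each library (line: group mean); right, the ratios of the pairs within each library on a log2 axis, with a dotted line at 1. The emc to da ratio lies between 5.37 and 6.51 in acj66_adPN and between 8.05 and 12.7 in WT_adPN, and the emc to ato ratio falls below 1 in acj66_adPN replicate 1.

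Profiles over the 6 libraries were compared by the root mean square difference of centred log2 levels, with 0.5 CPM added to each level. The profiles most like that of emc were those of Tango10 (0.0508), Rab35 (0.0525) and sn (0.0537). Tango10 averaged 187 ± 13.3 CPM in acj66_adPN and 280.0 ± 35.9 CPM in WT_adPN. For ato they were PGRP-LA (0.131), FBgn0037726, which has no symbol in the tables used (0.272), and Wdr59 (0.302). PGRP-LA averaged 2.29 ± 0.944 CPM in acj66_adPN and 0.399 ± 0.356 CPM in WT_adPN, far lower than ato. In WT_adPN replicates 1 to 3 PGRP-LA was at 0, 0.682 and 0.516 CPM, and FBgn0037726 at 0.0365, 1.14 and 0.199 CPM. Their likeness to ato thus depends much on the 0.5 CPM added. Wdr59 averaged 48.5 ± 18.2 CPM in acj66_adPN and 17.0 ± 6.88 CPM in WT_adPN.

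The bHLH family is larger than the 10 genes, and 47 others were set in 3 lists by class, of which 46 were matched and 36 tested. SREBP, sima and dysf rose and none fell, which is 8.33% of the 36, against 4.4% of all genes tested. The median log2 fold change of the 36 was 0.09, against -0.01 over all genes tested.

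All 3 belong to the 20 bHLH-PAS and bHLH-leucine zipper factors, a list whose genes were all tested. SREBP, the activator of lipid synthesis genes, stood at 1273, 1215 and 1058 CPM in acj66_adPN and at 687, 689 and 647 CPM in WT_adPN. It rose 1.75-fold (log2 fold change 0.81 ± 0.10, adjusted p = 0.00490, edgeR), and the call held in all 6 leave-outs. sima, the fly hypoxia-inducible factor, stood at 158, 149 and 185 CPM in acj66_adPN and at 106, 109 and 101 CPM in WT_adPN (log2 fold change 0.64 ± 0.13, adjusted p = 0.0334, edgeR). The sima groups did not overlap, but its call was lost in each of the 6 leave-outs, with adjusted p-values from 0.0601 to 0.115, and with the transcript-length trend removed (0.44, adjusted p = 0.11). dysf, a PAS factor of tracheal fusion cells, had 600, 61 and 17 reads in acj66_adPN and 2, 0 and 1 in WT_adPN, a ratio of 190 with a counting interval of 64.6 to 922. The interval covers counting error only. Most of its reads were in acj66_adPN replicate 1, without which its fitted log2 fold change was 4.95, against 7.28 with all libraries, and its call was lost (adjusted p = 0.208, edgeR). It was called in only 1 of the 6 leave-outs, and not by limma-voom (adjusted p = 0.341). tgo, the common partner of several PAS factors, averaged 118 ± 20.4 CPM in acj66_adPN and 89.9 ± 13.5 CPM in WT_adPN and was not called (adjusted p = 0.318). It was named after its values were seen.

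None of the 8 tested repressors of the Hairy and E(spl) class, in which the E(spl) proteins carry the Notch signal that opposes proneural genes, was called by edgeR, DESeq2 or limma-voom, and 0 were under 0.05 in edgeR before adjustment. The smallest p was that of E(spl)mbeta-HLH, at 3.45, 2.04 and 3.54 CPM in acj66_adPN and 5.07, 4.52 and 7.74 CPM in WT_adPN (log2 fold change -0.94 ± 0.56, adjusted p = 0.473). Sidpn, a deadpan relative named after its values were seen, was the most abundant, at 483 ± 84.7 CPM in acj66_adPN and 426 ± 17.2 CPM in WT_adPN, with a 95% interval of its log2 fold change from -0.12 to 0.49.

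Of the other tissue-restricted activators 8 were tested. Calls numbered 0 in edgeR, 0 in limma-voom and 1 in DESeq2, with 1 under 0.05 in edgeR before adjustment. That gene was Fer2, at 6.56, 5.35 and 6.78 CPM in acj66_adPN against 8.94, 18.5 and 18.7 CPM in WT_adPN (log2 fold change -1.30 ± 0.40, adjusted p = 0.117). Its groups did not overlap. Oli, an Olig-family gene named after its values were seen, averaged 234 ± 26.2 CPM in acj66_adPN and 221 ± 16.1 CPM in WT_adPN, with a 95% interval of its log2 fold change from -0.20 to 0.37.

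**Figure D3:**
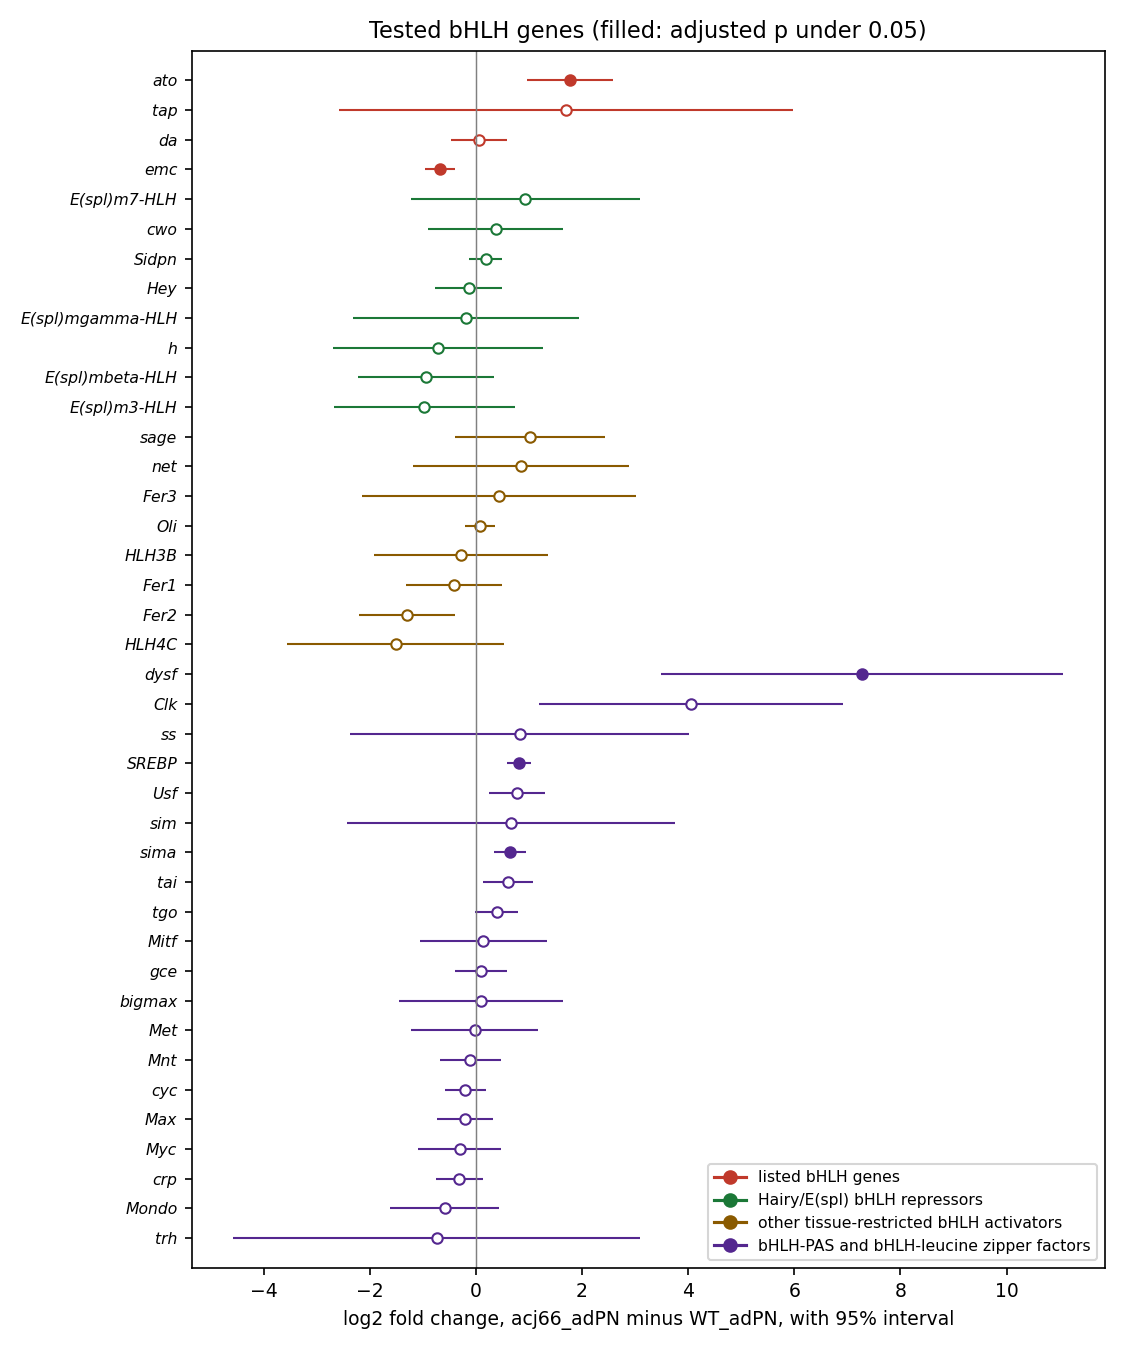
Log2 fold change (x axis, acj66_adPN minus WT_adPN) with its 95% interval from edgeR for the 4 tested genes of the 10 and the 36 other tested bHLH genes, coloured by list; filled points had an adjusted p under 0.05. The filled points are ato at 1.77, emc at -0.67, dysf at 7.28, SREBP at 0.81 and sima at 0.64.

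Genes that act above or below the proneural proteins gave 1 higher and 0 lower of 18 tested, or 5.56% against 4.4% of all genes tested. phyl, which encodes an adaptor that directs degradation of Tramtrack in sensory precursors, averaged 150.4 ± 7.65 CPM in acj66_adPN and 98.1 ± 4.65 CPM in WT_adPN (SD, n = 3 each), with no overlap between the groups. It rose 1.53-fold (log2 fold change 0.62 ± 0.13, adjusted p = 0.0317, edgeR), and the call was lost in all 6 leave-outs, with adjusted p-values from 0.0679 to 0.108. The groups also did not overlap for neur, ush, gro and chn, which were higher in acj66_adPN, and for sgg and rho, which were lower, and none of these was called. With phyl this made 7 of the 18 without overlap, against 23.2% of all genes tested. The values named next were chosen after they were seen. sens, a zinc-finger gene switched on by proneural proteins in precursors, was at 0, 1.40 and 0.0810 CPM in acj66_adPN and at 0, 0 and 0.0397 CPM in WT_adPN. neur, the ubiquitin ligase gene of Notch signalling, averaged 147 ± 19.6 CPM in acj66_adPN and 86.6 ± 29.9 CPM in WT_adPN (adjusted p = 0.154), and ush, a cofactor that restrains the achaete-scute activator Pannier, averaged 108 ± 5.18 CPM in acj66_adPN and 62.7 ± 15.5 CPM in WT_adPN (adjusted p = 0.0587). gro, the corepressor of the E(spl) proteins, averaged 53.4 ± 3.92 CPM in acj66_adPN and 44.8 ± 5.85 CPM in WT_adPN (adjusted p = 0.556). sgg, the fly glycogen synthase kinase gene, averaged 201 ± 22.6 CPM in acj66_adPN and 276 ± 56.9 CPM in WT_adPN (adjusted p = 0.184), and rho, a protease gene of EGF receptor signalling, averaged 74.4 ± 9.0 CPM in acj66_adPN and 90.8 ± 4.69 CPM in WT_adPN (adjusted p = 0.410).

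Markers of neuroblasts and ganglion mother cells held 13 tested genes, of which edgeR called 0, limma-voom 0 and DESeq2 2, with 2 under 0.05 in edgeR before adjustment. Apart from the listed bHLH genes and pros, which neurons also express, their sum was 301 to 336 CPM in acj66_adPN and 277 to 326 CPM in WT_adPN. Most of this sum was brat, at 251 ± 11.1 CPM in acj66_adPN and 233 ± 6.31 CPM in WT_adPN. nerfin-1 came next, at 43.8 ± 1.37 CPM in acj66_adPN and 33.8 ± 19.4 CPM in WT_adPN. Both were named after their values were seen. pros averaged 3780 ± 540.1 CPM in acj66_adPN and 2867 ± 160.4 CPM in WT_adPN (adjusted p = 0.0749). With the transcript-length trend removed, the log2 fold change of pros was -0.03 (adjusted p = 0.922, edgeR), against 0.40 in the main fit. insc had 82 reads in acj66_adPN and none in WT_adPN, at least 22.9-fold higher when the WT_adPN group is set to its floor of 3 counts, and between 13.7-fold and 26.6-fold with any 1 library left out. insc shares 359 exon bases with sktl on the same strand, and its count is uncertain.

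Muscle markers summed to 22.4 to 33.8 CPM in acj66_adPN and to 5.63 to 15.4 CPM in WT_adPN. Of the 9 tested, edgeR called 0, limma-voom 0 and DESeq2 2. Before adjustment 3 were under 0.05 in edgeR, against 1533 of all 9229 genes tested. Their most abundant gene, sls, averaged 12.6 ± 6.89 CPM in acj66_adPN and 2.91 ± 1.82 CPM in WT_adPN, and Act88F had 104 reads in acj66_adPN and none in WT_adPN, at least 29.1-fold higher on the same floor. Leaving out 1 library put the Act88F bound between 17.4-fold and 34.2-fold. This bound covers counting error only, and Act88F was not called (adjusted p = 0.0575, edgeR). Hemocyte and fat body markers other than Pxn, a peroxidasin gene at 3881 to 5479 CPM in acj66_adPN and 4691 to 5180 CPM in WT_adPN, summed to 24.7 to 35.8 CPM in acj66_adPN and to 12.6 to 21.9 CPM in WT_adPN. Among the 6 tested, calls numbered 0 in edgeR and limma-voom and 1 in DESeq2, and 1 was under 0.05 in edgeR before adjustment. That gene was Hml, the defining hemocyte gene, with 66 reads in acj66_adPN and 1 in WT_adPN, a ratio of 55.4 with an interval of 9.61 to 2221 that covers counting error only. The single read was in WT_adPN replicate 1, without which the fitted log2 fold change of Hml was 7.37, against 5.32 with all libraries.

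**Figure D4:**
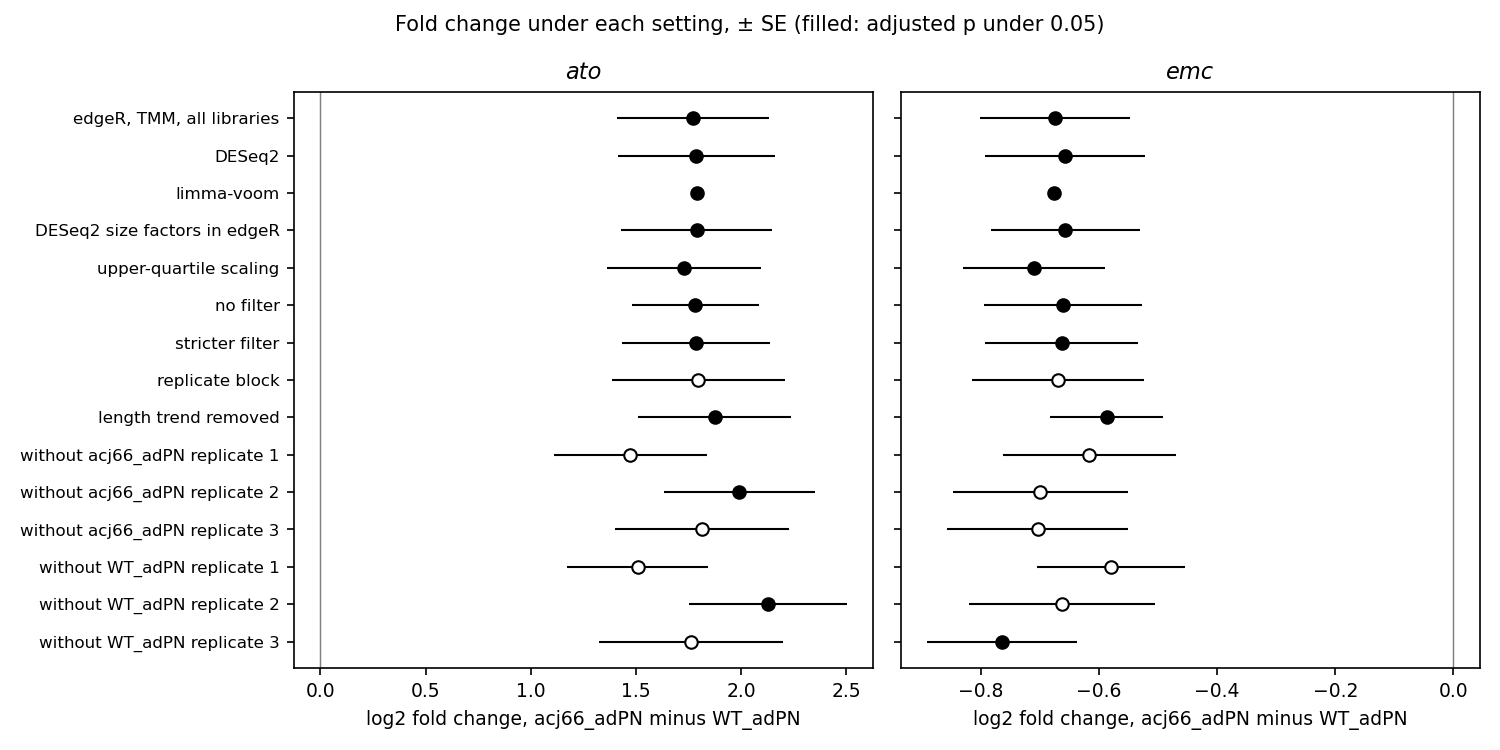
Log2 fold change of ato and emc (x axes, acj66_adPN minus WT_adPN) under each of 15 settings of the analysis, with ± SE where the tool gave one; filled points had an adjusted p under 0.05. ato stays between 1.47 and 2.13 and emc between -0.76 and -0.58, while several leave-outs and the replicate block have open points.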

How the data were processed

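Each library has 1 deposited file of raw, whole-number counts by gene. Per the labels, RNA was amplified with SMART-seq2 in modified form. HTSeq 0.11.2, STAR 2.5.4 and bcl2fastq 2.19.0.316 are named in the submitters' processing notes. No coordinates are printed, since the sources used here give neither build, annotation release nor strand setting. Reads outside genes came to 8.59% to 10.9% of gene counts. Library sizes and tests leave these out, with the 96 spike-ins, 3 transgenes and summary entries. The labels do not say that libraries came from separate animals, so the spread that the p-values measure is that of these libraries and may be technical. The 10 genes, the lists and the alternatives were chosen with earlier results of these data known.

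Symbols came from the Ensembl names (17242 of 17471 genes matched), and arms, lengths, neighbours and overlaps from the gene models of Ensembl 115 (BDGP6.54), by identifier. dei, Nplp2 and btl, which were on the lists, were not matched and are not analysed here.

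filterByExpr of edgeR 4.0.16 (R 4.3.3) kept 9229 genes, tested with TMM scaling and the quasi-likelihood test on genotype over 6 libraries, with Benjamini-Hochberg adjustment over all of them. The procedure was tested on simulated data, with changes planted only in genes with many counts. edgeR recovered 43% of those with a log2 fold change of size 1 and 76% of those of size 2. Log2 fold changes are acj66_adPN minus WT_adPN. Alternatives used DESeq2 1.42.0, limma-voom (limma 3.58.1), other scalings and filters, removal of each library's length trend, a replicate block and leaving out each library.

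The genes named were the 10 listed, acj6, up to 4 called members of each other list with the smallest p (or the tested member with the smallest p), the most abundant tested marker of each marker list, and the 3 genes nearest in profile to each of the 2 most abundant listed genes. The neighbours of ato and emc were named as well. Any other gene, among them Rfx, wor, dpn and repo, was named after its values were seen, whether or not its sentence says so.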

Additional observations from a re-analysis of the deposited data

How the results depend on the processing

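The directions of ato and emc held under all 14 alternatives, and their calls lost in leave-outs are given with each gene. The count of all called genes, 406 with edgeR, was 1094 with DESeq2 and 143 to 249 with 1 library left out. Of the 10 listed genes 2 were called, and 0 to 1 with 1 library left out. Other bHLH genes called numbered 3, against 6 with DESeq2, 1 with the length trend removed, and 1 to 2 with 1 library left out. The emc to da difference in log2 ratio was -0.96 to -0.63 in the leave-outs. The cause of these shifts was not tested, and the leave-outs also had fewer libraries.

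Same-numbered libraries of the groups had correlations of their deviations from the group means between -0.00131 and 0.0469, and not every library was closest to its own number, so the numbers are not taken to pair them. With a replicate block 293 genes were called, 0 of the listed genes (2 had an unadjusted p under 0.05; adjusted p = 0.0649 for ato and 0.0559 for emc in edgeR) and 1 other bHLH gene. sima (adjusted p = 0.0776), dysf (0.0522), phyl (0.0727) and nrv2 (0.0914) also lost their calls in that fit. With libraries paired by number the emc to da difference was -0.78 (exact sign-flip p = 0.25, the smallest 3 pairs allow).

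Of the 355 values for the 26 tested genes followed over the alternatives, 51 lost a call, 8 gained one and 296 kept their side of the threshold. The achaete-scute genes, amos, cato and tap had few reads, so small differences in them were not detectable, and for ase and tap the reads also differed widely between libraries of a group.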
